A study of Mus musculus with 8 samples.

Results

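The enzymes that make, recycle and use arginine and citrulline were examined in the small intestine of mice: Cps1, Otc, Ass1, Asl, Arg1, Arg2, Odc1, Ddah1 and Ddah2. They were chosen by gene symbol, and each of the 9 symbols matched 1 row of a table of 55421 genes. All 9 enzymes were among the 35431 genes left by a filter on low counts. Bulk RNA sequencing of total RNA gave 8 libraries from mice of WT genotype, all kept at 7% oxygen for 7 days. In 4 libraries the mice also received 4 mM nitrate (Hypoxia+Nitrate), and in 4 they did not (Hypoxia). Every library thus comes from mice at low oxygen, and a group at normal oxygen was not analysed here. The labels give neither strain, age, sex and intestinal segment nor the route of nitrate. Nothing in them ties each library to an animal of its own; the spread that p-values are set against may therefore be technical.

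Enterocytes, the absorptive cells of the gut, are known as a main source of circulating citrulline. In their mitochondria Cps1 joins ammonia and bicarbonate to carbamoyl phosphate, and Otc couples that to ornithine to give citrulline. Ass1 and Asl turn citrulline into arginine, which arginases split into ornithine and urea and nitric oxide synthases convert into nitric oxide and citrulline. Odc1 makes putrescine, the starting polyamine, from ornithine. Ddah1 and Ddah2 degrade methylated arginines, which inhibit nitric oxide synthases. Nitrate is a source of nitric oxide that needs no arginine. The comparison asks which of these enzymes differ in RNA level when nitrate is given during hypoxia.

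The libraries of both groups differed in composition. Total counts ran from 8662279 to 63943036 in Hypoxia+Nitrate and from 5345377 to 21835865 in Hypoxia. A background level was estimated from 1468 chemosensory receptor genes (odorant, vomeronasal and trace-amine families) taken as silent in gut. It amounted to 2.74% to 23.2% of nuclear protein-coding counts in Hypoxia+Nitrate and 39.0% to 63.7% in Hypoxia. Hypoxia+Nitrate 1 and 4 stood apart from Hypoxia+Nitrate 2 and 3. Their summed enterocyte markers (Fabp2, Vil1, Alpi, Anpep, Apoa4, Rbp2, Sis and Lct) reached 32953 and 35895 CPM, against 1602 and 869.8 CPM in Hypoxia+Nitrate 2 and 3 and 49.1 to 553 CPM in Hypoxia. Mitochondrially encoded protein-coding genes took 6.90% to 64.0% of counts in Hypoxia+Nitrate and 0.423% to 1.06% in Hypoxia. Genes that overlap ribosomal DNA repeats (Gm26917, Gm42418, AY036118 and CT010467.1) took 2.33% to 22.0% of counts in Hypoxia+Nitrate, and 75.7%, 73.7%, 7.06% and 45.0% in Hypoxia 1 to 4. Of all genes in the table, 46.6% to 68.2% had a count in Hypoxia+Nitrate libraries and 88.5% to 92.5% in Hypoxia libraries. All 8 enterocyte markers were called higher in Hypoxia+Nitrate, and the part of these differences in the results was not tested. In whole tissue, fewer cells of a type and less RNA per cell cannot be told apart. CPM here means counts scaled to a common library total with TMM factors, which ran from 0.220 to 2.13 in Hypoxia+Nitrate and from 0.633 to 3.69 in Hypoxia.

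In Hypoxia+Nitrate, 4 of the 9 enzymes rose, 0 fell and 5 did not pass. The 4 were the mitochondrial arginase Arg2, ornithine decarboxylase Odc1, ornithine transcarbamylase Otc and argininosuccinate lyase Asl, with log2 fold changes of 5.75, 3.76, 3.33 and 2.06. A gene was called at an edgeR quasi-likelihood adjusted p under 0.05. By the same rule 11.7% of all genes tested were called higher and 12.7% lower. Among nuclear protein-coding genes, 18.5% were called higher and 9.75% lower. The median log2 fold change was 1.43 over the 9 enzymes, −0.58 over all genes tested and 0.04 over nuclear protein-coding genes. Every Hypoxia+Nitrate value lay above every Hypoxia value for 5 enzymes (Arg2, Odc1, Asl, Ass1 and Ddah2), as for 12.0% of all genes tested; 28.8% were lower without overlap, and 0 of the 9 enzymes.

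**Figure D1:**
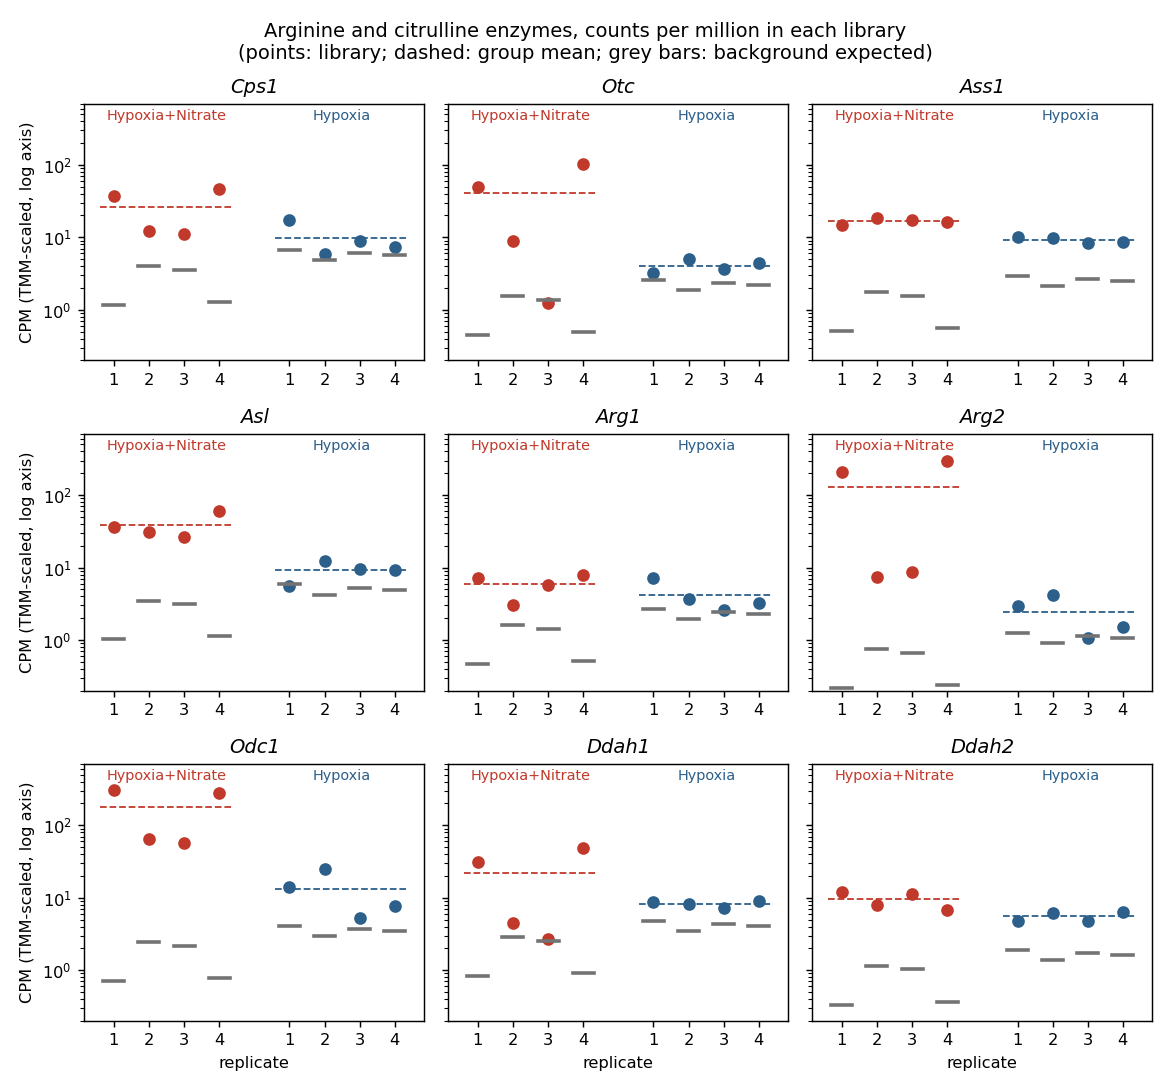
CPM (TMM-scaled, log axis) of each enzyme in the 4 Hypoxia+Nitrate and 4 Hypoxia libraries by replicate number; points are libraries, dashed lines group means, and grey bars the background expected from receptor genes. Arg2 reached 209.6 and 291.2 CPM in Hypoxia+Nitrate 1 and 4, while Ass1 stayed between 14.8 and 18.4 CPM in Hypoxia+Nitrate.

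Of the citrulline-making enzymes, Otc passed and Cps1 did not. Otc (ENSMUSG00000031173, GRCm38 chromosome X, 10252305 to 10321024) held 49.7, 8.87, 1.25 and 103.0 CPM in Hypoxia+Nitrate 1 to 4 and 3.20, 4.95, 3.64 and 4.40 CPM in Hypoxia 1 to 4. Hypoxia+Nitrate 1 and 4 were high, and Hypoxia+Nitrate 3 lay below every Hypoxia library, so the groups overlapped. The log2 fold change of Otc was 3.33 (SE 1.01, edgeR adjusted p = 0.0362). The call was lost without any 1 of the 4 Hypoxia libraries, Hypoxia+Nitrate 1 or Hypoxia+Nitrate 4, at log2 fold changes of 2.30 to 3.54 (edgeR adjusted p = 0.0570 to 0.112). It was also lost in limma-voom (1.95, adjusted p = 0.231) and under upper-quartile scaling (2.82, edgeR adjusted p = 0.0527), and in 13 of the 22 alternatives Otc was higher but did not pass. Its 23 counts in Hypoxia+Nitrate 3 were 0.919 times the expected background, so Otc could not be detected over background in that library at its depth.

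Cps1 (ENSMUSG00000025991, chromosome 1, 67123026 to 67231259) held 37.2, 12.1, 11.1 and 46.0 CPM in Hypoxia+Nitrate 1 to 4 and 17.2, 5.82, 9.01 and 7.41 CPM in Hypoxia 1 to 4. Hypoxia 1 exceeded Hypoxia+Nitrate 2 and 3, and the groups overlapped. Cps1 did not pass, with a log2 fold change of 1.43 (SE 0.579, edgeR adjusted p = 0.0908). It did pass without Hypoxia+Nitrate 2 (1.72, edgeR adjusted p = 0.0266) or without Hypoxia+Nitrate 3 (1.88, edgeR adjusted p = 0.0308). Cps1, Otc and Arg1 are best known from liver. Of 7 hepatocyte markers (Alb, Ttr, Serpina1a, Apoa2, Fgb, Cyp2e1 and Tat) 0 rose and 0 fell, and none was at 0 in a whole group. Their summed level was 100.2 to 253.6 CPM in Hypoxia+Nitrate and 56.4 to 188.4 CPM in Hypoxia; their part in these values was not tested.

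Of the arginine-making pair, Asl passed and Ass1 did not. Asl (ENSMUSG00000025533, chromosome 5, 130011258 to 130029247) held 36.0, 30.8, 26.4 and 59.9 CPM in Hypoxia+Nitrate 1 to 4 and 5.47, 12.4, 9.54 and 9.15 CPM in Hypoxia 1 to 4. All 4 Hypoxia+Nitrate libraries were above all 4 Hypoxia libraries. Asl rose by 2.06 (SE 0.445, edgeR adjusted p = 0.0108), a 4.18-fold change.

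Ass1, argininosuccinate synthase (ENSMUSG00000076441, chromosome 2, 31470207 to 31520672), had the narrowest spread of the 9 in Hypoxia+Nitrate relative to its mean. It held 14.8, 18.4, 17.5 and 16.2 CPM in Hypoxia+Nitrate 1 to 4 and 9.95, 9.67, 8.38 and 8.61 CPM in Hypoxia 1 to 4. Those groups did not overlap, and Ass1 was as high in Hypoxia+Nitrate 2 and 3 as in 1 and 4. The mean was 16.7 ± 1.59 CPM in Hypoxia+Nitrate and 9.15 ± 0.773 CPM in Hypoxia (SD, n = 4 each). The log2 fold change of 0.87 (SE 0.340) did not pass (edgeR adjusted p = 0.0823), though it did without Hypoxia+Nitrate 1 and 4 (1.06, edgeR adjusted p = 0.0281).

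Arg2 had the largest fold change of the 9. Arg2 (ENSMUSG00000021125, chromosome 12, 79130777 to 79156301) is the mitochondrial arginase found outside the liver. It held 2950, 132, 159 and 5969 counts in Hypoxia+Nitrate 1 to 4 and 44, 57, 20 and 25 counts in Hypoxia 1 to 4. On the scaled level these were 209.6, 7.50, 8.65 and 291.2 CPM in Hypoxia+Nitrate and 2.94, 4.15, 1.05 and 1.51 CPM in Hypoxia. The groups did not overlap, and Hypoxia+Nitrate 1 and 4 exceeded Hypoxia+Nitrate 2 and 3 by an order of magnitude. The log2 fold change was 5.75 (SE 1.27, edgeR adjusted p = 0.0116), a 53.6-fold change. The counts in Hypoxia were 2.37, 4.63, 0.941 and 1.43 times the expected background, so the size of this fold rests on a level near background. Exons of Vti1b and Gm48780 on the opposite strand overlap Arg2, and 71.9% of its exonic length is free of other genes; the strand setting of the counting is not given in the sources used here, and reads of the overlap may be misassigned.

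Arg1, the cytosolic arginase of liver and of some macrophages, did not pass. Arg1 (ENSMUSG00000019987, chromosome 10, 24915221 to 24927484) held 7.25, 3.01, 5.77 and 8.0 CPM in Hypoxia+Nitrate 1 to 4 and 7.08, 3.71, 2.58 and 3.25 CPM in Hypoxia 1 to 4. The groups overlapped (log2 fold change 0.53, SE 0.539, edgeR adjusted p = 0.463). Of 6 macrophage markers (Cd68, Adgre1, Csf1r, Mrc1, Lyz2 and C1qa) 2 rose, 0 fell and none was at 0 in a whole group. The summed macrophage level was 35.1 to 87.0 CPM in Hypoxia+Nitrate and 26.1 to 35.9 CPM in Hypoxia. That was 3.01 to 20.7 times the expected background in Hypoxia+Nitrate and 1.34 to 1.65 times in Hypoxia, so the Hypoxia sum lay near background. The part of macrophages in the Arg1 values was not tested.

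Odc1, which catalyses the entry step of polyamine synthesis, rose with all 4 Hypoxia+Nitrate libraries above all 4 Hypoxia libraries. Odc1 (ENSMUSG00000011179, chromosome 12, 17544794 to 17551505) held 4357, 1125, 1051 and 5781 counts in Hypoxia+Nitrate 1 to 4 and 214, 348, 101 and 128 counts in Hypoxia 1 to 4. The scaled levels were 309.5, 64.0, 57.2 and 282.0 CPM in Hypoxia+Nitrate and 14.3, 25.3, 5.32 and 7.71 CPM in Hypoxia. The lowest Hypoxia+Nitrate library was thus above the highest Hypoxia library. Odc1 rose by 3.76 (SE 0.808, edgeR adjusted p = 0.0108), a 13.5-fold change. It was 26.1 to 432.4 times the expected background in Hypoxia+Nitrate and 1.43 to 8.52 times in Hypoxia.

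Otc and Odc1 are the 2 called enzymes among the 5 of 9 with a RefSeq promoter window (build GRCm38.p6), and the bases upstream of their start are shown to set a pair of promoters side by side. The windows end before the earliest annotated start, run 5′ to 3′ on the plus strand, and capitals mark GGGCGG, the GC box, or its reverse complement.
Odc1, chr12:17544623-17544793: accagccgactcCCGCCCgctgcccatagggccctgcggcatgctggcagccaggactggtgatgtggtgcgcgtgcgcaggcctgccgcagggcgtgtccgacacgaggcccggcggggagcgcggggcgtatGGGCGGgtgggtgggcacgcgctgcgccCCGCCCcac
Otc, chrX:10252055-10252304: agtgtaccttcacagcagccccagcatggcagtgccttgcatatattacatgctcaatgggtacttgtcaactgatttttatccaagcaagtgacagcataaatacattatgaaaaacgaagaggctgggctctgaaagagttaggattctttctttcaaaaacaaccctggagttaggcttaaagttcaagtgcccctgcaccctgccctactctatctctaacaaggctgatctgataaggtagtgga

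GGGCGG was found 3 times in the printed Odc1 stretch, and 4 times in its window of 300 bases from 250 before to 50 after the start. The windows of Ddah2 and Ass1 held 3 and 1, and those of Otc and Ddah1 held 0. On either strand this motif occurs in 35.7% of 32851 promoter windows of that length. The E-box CACGTG (7.15% of windows), the shorter ACGTG inside it (19.6%) and TATAAA (13.6%) had no match in the windows of Odc1 and Otc. ACGTG is 1 form of the core of the hypoxia response element, and its other form, GCGTG, was not counted over the windows. The printed Odc1 stretch does hold GCGTG, on both strands, and that of Otc does not. The lack of ACGTG in the Odc1 window is thus not a lack of that core. Of the 5 windows, that of Ass1 alone held ACGTG, with 2 matches on opposite strands of 1 CACGTG. These matches describe letters in a window and say nothing of binding.

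The enzymes that break down methylated arginines did not pass. Ddah1 (ENSMUSG00000028194, chromosome 3, 145758675 to 145894277) held 30.9, 4.49, 2.72 and 48.4 CPM in Hypoxia+Nitrate 1 to 4 and 8.68, 8.29, 7.22 and 8.91 CPM in Hypoxia 1 to 4. Hypoxia+Nitrate 1 and 4 lay above every Hypoxia library, and Hypoxia+Nitrate 2 and 3 below every one. Its log2 fold change was 1.39 (SE 0.776, edgeR adjusted p = 0.196). Without Hypoxia+Nitrate 1 and 4 the direction turned (−1.12, edgeR adjusted p = 0.0585), and with library size as the only scaling it was −0.49 (edgeR adjusted p = 0.845). Without Hypoxia+Nitrate 3, Ddah1 passed upward (1.95, edgeR adjusted p = 0.0458).

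Ddah2 (ENSMUSG00000007039, chromosome 17, 35059035 to 35062095) held 12.0, 7.85, 11.2 and 6.78 CPM in Hypoxia+Nitrate 1 to 4 and 4.74, 6.18, 4.80 and 6.44 CPM in Hypoxia 1 to 4. Hypoxia+Nitrate was higher without overlap, by a narrow gap between Hypoxia+Nitrate 4 and Hypoxia 4. The log2 fold change was 0.77 (SE 0.404, edgeR adjusted p = 0.171). Ddah2 is known from endothelium, whose 5 markers (Pecam1, Cdh5, Tek, Kdr and Emcn) summed to 19.8 to 89.8 CPM in Hypoxia+Nitrate and 45.0 to 56.7 CPM in Hypoxia. Of these 5 markers 0 rose and 1 fell, none was at 0 in a whole group, and their part in the Ddah2 values was not tested.

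The calls depended on which libraries entered the fit and on the treatment of background. Without Hypoxia 1, 0 of the 9 enzymes passed, with edgeR adjusted p of 0.0527 for Odc1, 0.0533 for Asl, 0.0537 for Arg2 and 0.112 for Otc; without it 1.95% of 34746 genes were called higher. Without Hypoxia+Nitrate 1 and 4 the enzymes called higher were again 4, now with Ass1 in place of Otc, beside 10.1% of all genes. In that fit the log2 fold change was 1.83 for Arg2, 2.27 for Odc1, 1.72 for Asl and 0.36 for Otc (edgeR adjusted p = 0.0492, 0.0231, 0.0168 and 0.703). After the expected background was subtracted, limma-voom called Odc1 alone of the 9 (3.02, SE 0.859, adjusted p = 0.0453). That fit was run on nuclear protein-coding genes only, and 4.23% of the 14974 left by its filter were called higher. There Arg2, Asl and Otc were at 4.80, 2.90 and 0.82, with SEs of 2.25, 1.26 and 3.02 (limma-voom adjusted p = 0.172, 0.146 and 0.869). Counts under the expected background were set to 0, as for Arg2 in Hypoxia 3, Asl in Hypoxia 1 and Otc in Hypoxia+Nitrate 3. With library size as the only scaling Arg2 alone of the 9 passed (4.06, edgeR adjusted p = 0.0152), beside 0.686% of all genes called higher. The all-gene median log2 fold change shifted to −0.87 under RLE, −0.94 under upper-quartile and −1.07 under library-size scaling, while the median of the 9 enzymes was 1.17, 0.98 and 0.36.

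**Figure D2:**
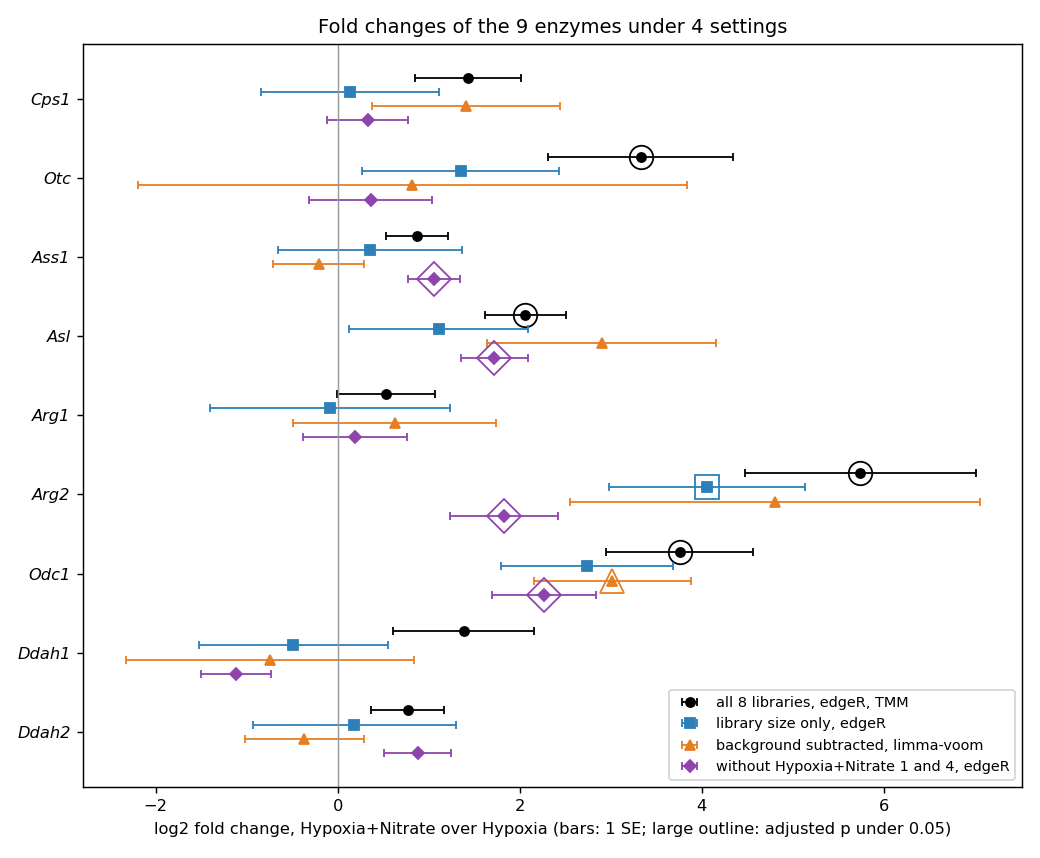
Log2 fold change, Hypoxia+Nitrate over Hypoxia, with 1 SE for the 9 enzymes under 4 settings; a large outline marks an adjusted p under 0.05. Odc1 lies between 2.27 and 3.76 in all 4 settings and Arg2 between 1.83 and 5.75, whereas Ddah1 lies at 1.39 with all libraries and TMM and below 0 in the other 3.

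Per kb of exonic length, the order of the levels differed between the groups. In Hypoxia+Nitrate the mean ran from Arg2 (90.5 ± 101 CPM per kb) over Odc1 (52.3 ± 40.0), Otc (9.60 ± 11.0), Asl (7.92 ± 3.10), Ass1 (6.93 ± 0.659), Ddah2 (5.94 ± 1.59), Ddah1 (5.43 ± 5.53) and Cps1 (4.79 ± 3.19) to Arg1 (2.70 ± 0.988; SD, n = 4). The ranges of every pair of neighbours in this order overlapped, although Odc1 was above Otc in 4 of 4 libraries. In Hypoxia the order was Odc1 (3.86 ± 2.63 CPM per kb), Ass1 (3.79 ± 0.320), Ddah2 (3.48 ± 0.565), Ddah1 (2.08 ± 0.188), Asl (1.89 ± 0.591), Arg1 (1.87 ± 0.898), Cps1 (1.77 ± 0.908), Arg2 (1.69 ± 0.986) and Otc (0.954 ± 0.183; SD, n = 4). Among these Hypoxia levels, Ddah2 and Ddah1 were the only neighbours whose ranges did not overlap. The receptor background was 0.210 to 0.720 CPM per kb in Hypoxia+Nitrate and 0.872 to 1.21 CPM per kb in Hypoxia, with X-linked genes such as Otc expected at a level lower by a factor of 0.5.

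Ratios of 2 enzymes within a library do not depend on scaling, though background counts enter both sides, and 4 were compared. The log2 ratio of Arg2 to Arg1 counts was 4.85, 1.31, 0.58 and 5.18 in Hypoxia+Nitrate 1 to 4 and −1.26, 0.16, −1.27 and −1.10 in Hypoxia 1 to 4. The groups did not overlap, and the mean difference was 3.85 (2-sided exact permutation p = 0.0286, which is the lowest p possible with 4 against 4; Benjamini-Hochberg adjusted p = 0.0571 over the 4 ratios). Without Hypoxia+Nitrate 1 and 4 the difference was 1.81. As a share of arginase counts, Arg2 made up 96.7% (exact 95% interval 96.0 to 97.3), 71.4% (64.3 to 77.8), 60.0% (53.8 to 66.0) and 97.3% (96.9 to 97.7) in Hypoxia+Nitrate 1 to 4. Its share was 29.3% (22.2 to 37.3), 52.8% (42.9 to 62.5), 29.0% (18.7 to 41.2) and 31.6% (21.6 to 43.1) in Hypoxia 1 to 4. Arg2 thus took the larger share of arginase counts in all 4 Hypoxia+Nitrate libraries, and in Hypoxia 2 alone of the Hypoxia libraries, where the interval includes equal shares. These intervals cover counting error only. In Hypoxia 1 to 4 the expected background was 18.6, 12.3, 21.3 and 17.5 counts for Arg2 and 40.3, 26.7, 46.1 and 38.0 for Arg1. Observed Arg1 counts were 2.63, 1.91, 1.06 and 1.42 times that level, and those of Arg2 2.37, 4.63, 0.941 and 1.43 times. How far background sets the Hypoxia ratios and shares was not tested.

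The log2 ratio of Ass1 to Asl counts was −1.28, −0.74, −0.59 and −1.89 in Hypoxia+Nitrate 1 to 4 and 0.86, −0.36, −0.19 and −0.09 in Hypoxia 1 to 4. All 4 Hypoxia+Nitrate libraries were lower, by 1.18 in the mean (difference −1.18, exact permutation test, 2-sided p = 0.0286, adjusted p = 0.0571). This difference was −0.72 without Hypoxia+Nitrate 1 and 4. After background subtraction it was −3.26. There Asl in Hypoxia 1 (82 counts, 87.5 expected) lay under background and was set to a floor of 0.5 counts. The size of −3.26 thus rests largely on that floor. Neither this ratio nor that of Arg2 to Arg1 passed the adjustment. The ratios of Cps1 to Otc (difference −0.68, exact permutation p = 0.543, adjusted p = 0.724) and of Ddah1 to Ddah2 (difference −0.25, exact permutation p = 0.83, adjusted p = 0.83) overlapped between the groups. Leaving out 1 library put the Cps1 to Otc difference between −1.55 (without Hypoxia+Nitrate 3) and −0.13 (without Hypoxia+Nitrate 4). For Ddah1 to Ddah2 the SD was 2.17 in Hypoxia+Nitrate and 0.201 in Hypoxia (n = 4 each).

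**Figure D3:**
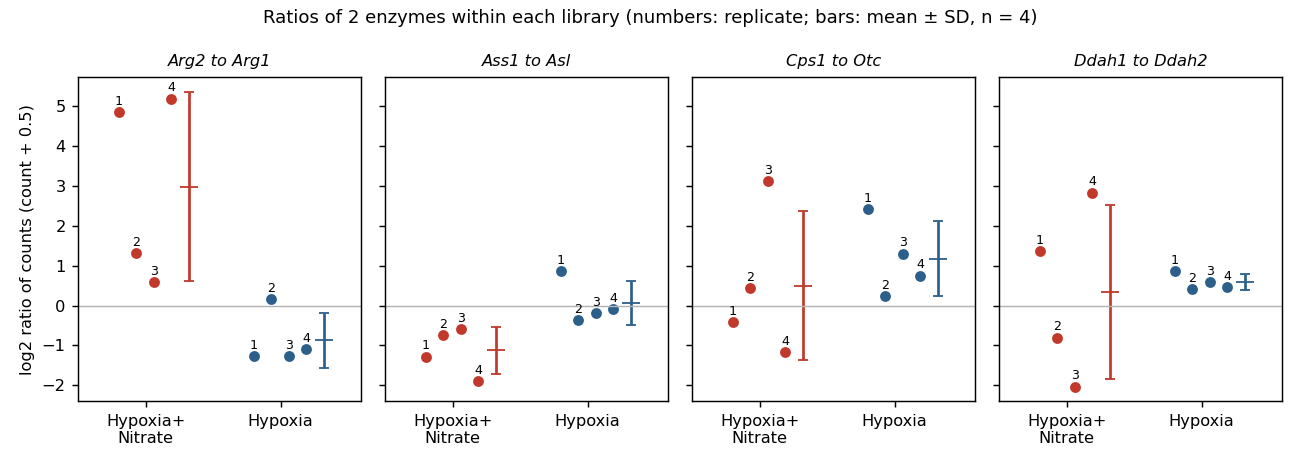
Log2 ratio of the counts of 2 enzymes within each library (0.5 count added to both), with replicate numbers at the points and mean ± SD (n = 4) beside them, Hypoxia+Nitrate left of Hypoxia. Arg2 to Arg1 lies above and Ass1 to Asl below the Hypoxia values in all 4 Hypoxia+Nitrate libraries; the other 2 ratios overlap.

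Among 55 neighbouring genes of the pathway, in 6 role groups, 18 rose, 2 fell and 35 did not pass, with a median log2 fold change of 1.00. Over all genes tested 11.7% were called higher and 12.7% lower with a median of −0.58, and over nuclear protein-coding genes 18.5% and 9.75% with a median of 0.04. Of 8 genes that interconvert proline, glutamate and ornithine, 2 rose: Oat, ornithine aminotransferase (4.47, SE 1.13, edgeR adjusted p = 0.0184), and Pycrl, a pyrroline-5-carboxylate reductase (2.60, SE 0.594, edgeR adjusted p = 0.0130). Oat held 293.0, 27.8, 43.2 and 656.3 CPM in Hypoxia+Nitrate 1 to 4 and 9.55, 25.2, 2.90 and 8.37 CPM in Hypoxia 1 to 4, with Hypoxia+Nitrate 2 just above Hypoxia 2. Aldh18a1, which makes pyrroline-5-carboxylate from glutamate, had a log2 fold change of 1.19 and did not pass (edgeR adjusted p = 0.0894).

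Of 5 genes that supply glutamine, glutamate and ammonia, 2 rose. They were Glud1, mitochondrial glutamate dehydrogenase (5.20, SE 1.16, edgeR adjusted p = 0.0118), and Glul, glutamine synthetase (2.50, SE 0.665, edgeR adjusted p = 0.0223). Glud1 held 1006, 45.8, 103.6 and 1220 CPM in Hypoxia+Nitrate 1 to 4 and 9.38 to 28.15 CPM in Hypoxia. Without Hypoxia+Nitrate 1 and 4, Glud1 and Glul were at 2.31 and 2.29 (edgeR adjusted p = 0.0200 and 0.0381). Glul was even within Hypoxia+Nitrate, at 209.5, 120.5, 155.4 and 191.7 CPM, against 44.8, 38.8, 5.06 and 31.3 CPM in Hypoxia 1 to 4. Nags, which makes the activator of Cps1, had a log2 fold change of 2.52 and did not pass (edgeR adjusted p = 0.0626). Its groups overlapped, with Hypoxia+Nitrate 1 and 4 high.

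Of the 3 nitric oxide synthases 0 rose and 1 fell. The endothelial Nos3 held 4, 3, 0 and 24 counts in Hypoxia+Nitrate 1 to 4 and 69, 76, 84 and 92 counts in Hypoxia 1 to 4, a log2 fold change of −3.59 (SE 1.08, edgeR adjusted p = 0.0345). Over each group the Nos3 counts were 0.344 times the expected background in Hypoxia+Nitrate and 1.69 times in Hypoxia, and 67.7% of its exonic length is free of other genes. Nos3 did not pass without any 1 of the 4 Hypoxia libraries or without Hypoxia+Nitrate 1. Neuronal Nos1 (−0.99, edgeR adjusted p = 0.113) and inducible Nos2 (0.67, edgeR adjusted p = 0.604) did not pass. Nos2 held 8.31, 1.82, 0.490 and 32.7 CPM in Hypoxia+Nitrate 1 to 4 and 5.47 to 8.29 CPM in Hypoxia, which overlapped. Without Hypoxia+Nitrate 1 and 4 its direction turned and it was called lower (−2.50, edgeR adjusted p = 0.0222).

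Of 13 other polyamine genes, enzymes and regulators of Odc1 protein among them, 7 rose and 0 fell, where 18.5% of nuclear protein-coding genes were called higher. The 7 were Oaz1, Sat1, Azin1, Amd2, Amd1, Smox and Oaz2; Amd1 and Amd2 are near-identical copies whose reads may be split. Oaz1, the antizyme that targets Odc1 protein for degradation, rose by 3.74 (SE 0.743, edgeR adjusted p = 0.00921). Sat1, which acetylates spermidine and spermine, rose by 3.34 (SE 0.714, edgeR adjusted p = 0.0106).

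Carriers of arginine, ornithine, citrulline and aspartate rose for 5 of 13 and fell for 0, beside the same 18.5%. Slc25a15, the mitochondrial ornithine carrier, rose by 3.70 (SE 0.902, edgeR adjusted p = 0.0163), and Slc7a7 and Slc3a2, partners in basolateral export of cationic amino acids, by 3.12 and 2.25 (edgeR adjusted p = 0.0119 and 0.0108). The other 2 were Slc7a9 and Slc3a1, partners in apical uptake (3.11 and 3.56, edgeR adjusted p = 0.0230 and 0.0392). Both overlapped between the groups. Slc7a9 held 61.3, 9.7, 3.27 and 51.3 CPM in Hypoxia+Nitrate 1 to 4 and 2.29 to 5.89 CPM in Hypoxia. Slc3a1 held 59.8, 3.64, 0.599 and 38.3 CPM, against 1.07 to 3.37 CPM. Without Hypoxia+Nitrate 1 and 4 neither passed. Slc25a15, Slc7a7 and Slc3a2 did, at 1.17, 1.43 and 1.75 (edgeR adjusted p = 0.0365, 0.0170 and 0.0154). Slc7a1, the general arginine importer, averaged 30.9 ± 3.81 CPM in Hypoxia+Nitrate and 28.6 ± 6.48 CPM in Hypoxia (SD, n = 4 each) and did not pass (0.11, edgeR adjusted p = 0.838). Of 13 other arginine users and methylarginine genes 2 rose and 1 fell, a share near that of nuclear protein-coding genes. The arginine methyltransferases Prmt1 and Prmt5 rose by 2.26 and 2.01 (edgeR adjusted p = 0.0199 and 0.0130). Agxt2, which transaminates methylated arginines, was at −2.31 (edgeR adjusted p = 0.0458), with counts 0.465 and 0.999 times the expected background over Hypoxia+Nitrate and Hypoxia. Without Hypoxia 1 the neighbours called were 1 higher (Oaz1, 3.59, edgeR adjusted p = 0.0497) and 0 lower. After background subtraction limma-voom called Oaz1 higher (2.36, adjusted p = 0.0216) and Nos1 and Nos3 lower (−2.53 and −6.45, adjusted p = 0.0379 and 0.00806). The Nos3 counts of Hypoxia+Nitrate 1, 2 and 3 lay under the expected background and were set to 0, so the size of −6.45 rests on that floor.

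**Figure D4:**
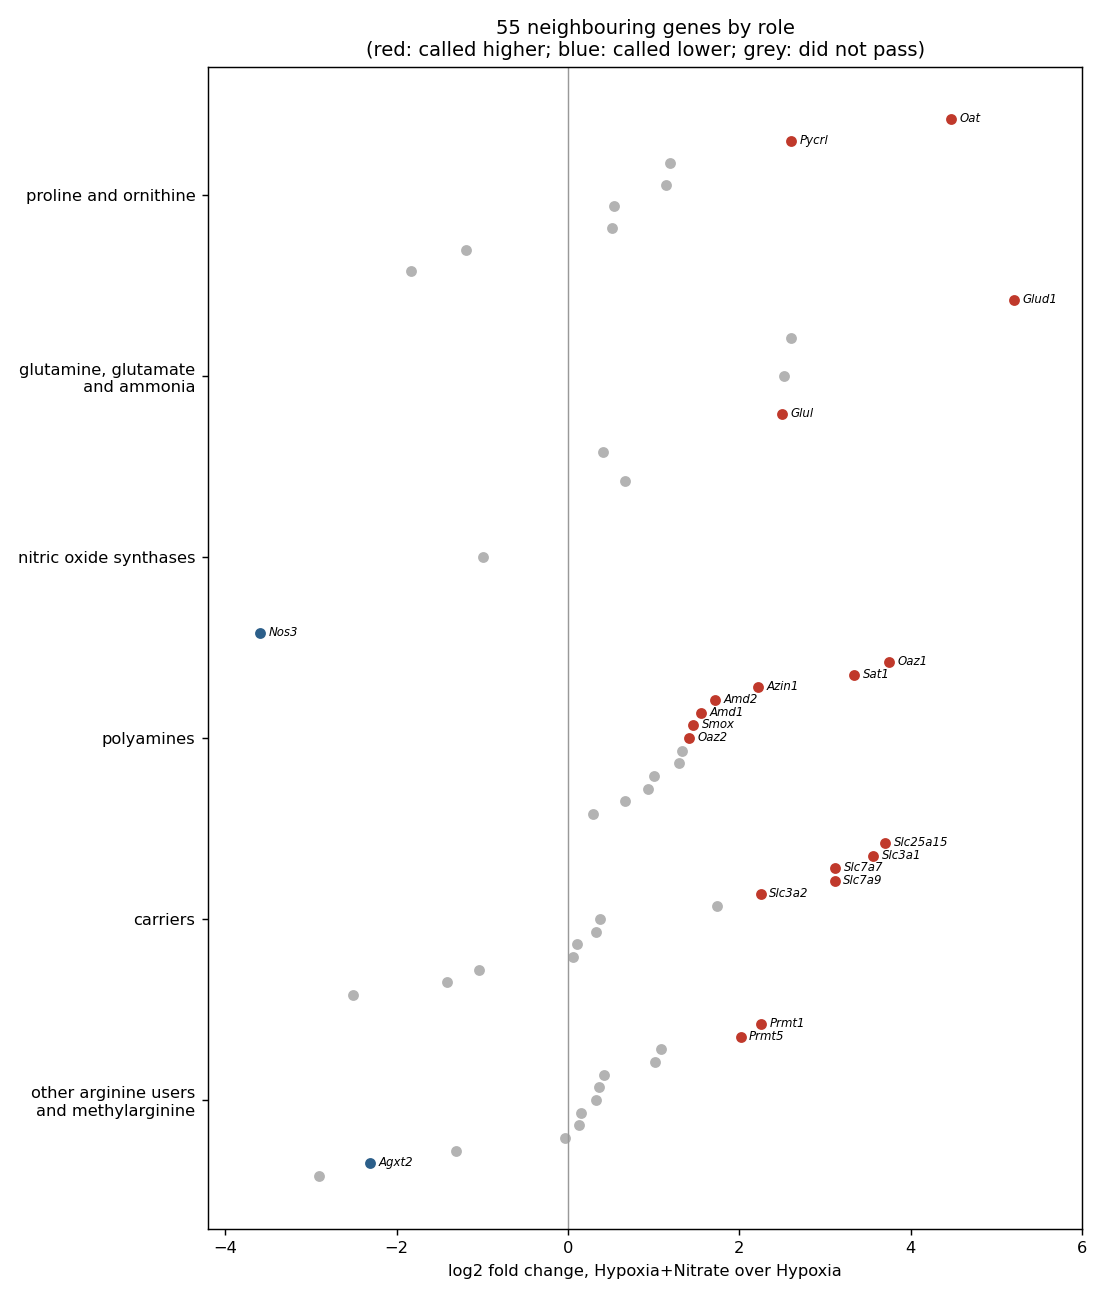
Log2 fold change, Hypoxia+Nitrate over Hypoxia, of the 55 neighbouring genes by role; red points were called higher, blue lower, and grey did not pass at an adjusted p of 0.05 (edgeR). The called points lie between 1.41 (Oaz2) and 5.20 (Glud1) on the higher side, and Nos3 and Agxt2 on the lower side.

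Arg2 had the highest mean level per kb over the 8 libraries and led in Hypoxia+Nitrate 1 and 4; in the other 6 libraries Odc1 was above Arg2, and in Hypoxia Arg2 was second lowest of the 9. The protein-coding genes whose log2(CPM + 1) followed it most closely were Psmc6, Stard4, Me2, Sucla2 and Gsto1, each with a Pearson r between 0.998 and 0.999 over 8 libraries, among 20128 genes. The points share their libraries and the gap between Hypoxia+Nitrate 1 and 4 and the other 6 libraries, and the values are given as a description.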

How the data were processed

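Total RNA of small intestine was isolated with TRIzol and made into libraries with a stranded kit, per the labels' protocols, which name islets at that step. HISAT, featureCounts 1.5.0-p3, DESeq 1.8.3 and build GRCm38 were used, per the submitters' processing notes. The authors deposited raw counts of reads for each gene; the joint table and the 8 single-sample tables held identical values. Coordinates and exonic lengths came from GENCODE M21 on GRCm38; 55240 of 55421 IDs matched.

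In R 4.3.3, edgeR 4.0.16 was run after filterByExpr (at least 10 counts, 15 in total) and TMM factors, with its quasi-likelihood test over all 8 libraries, with Benjamini-Hochberg adjustment over 35431 genes at 0.05. SEs were derived from the fold change and its F statistic. Expected background was the receptor-gene counts per kb of unshared exonic length multiplied by a gene's own such length, scaled by 0.5 for X and Y genes. X-linked receptor genes stood at 0.428 to 0.825 of the autosomal density. Alternatives used limma 3.58.1, DESeq2 1.42.0, other scalings and filters, the replicate number as a block, the background as covariate or subtracted, and fits without libraries. Permutation tests used scipy 1.17.1.

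Members, gene lists, tests and alternatives were chosen with earlier results of these data known. All 9 members are named. Among the neighbours, the 2 with the lowest p in each role group, Oat, Aldh18a1, Nags, Nos1, Nos2, Nos3, Slc7a1, Slc7a7 and Slc25a15 were to be named; other called genes were named after their values were seen, and 1 further gene of the rule is not reported here. The 5 genes most like the member with the highest mean per kb were ranked by Pearson r. The fits were tested on simulated data.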

Additional observations from a re-analysis of the deposited data

Results flagged for a closer look

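The log2 ratio of Arg2 to Arg1 counts in Hypoxia 2 was 0.159, apart from −1.26, −1.27 and −1.10 in Hypoxia 1, 3 and 4. Its gap to the nearest library was 0.877 of the group's range, above the 95% critical value of Dixon's test for 4 samples. Of 26 groups of 4 checked in this way (CPM of each enzyme and each ratio, in both conditions), this was the 1 that passed. Chance flags about 1 in 20. In Hypoxia 2 the counts were 4.63 times the expected background for Arg2 and 1.91 times for Arg1. In Hypoxia 1, 3 and 4 they were 2.37, 0.941 and 1.43 times for Arg2 and 2.63, 1.06 and 1.42 times for Arg1. The part of background in this flag was not tested.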

How the results depend on the processing

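The 22 alternatives per enzyme called 0 of the 9 enzymes lower. Without 1 library at a time, 1932 to 22454 genes, 0 to 6 enzymes higher, 1 to 25 neighbours higher and 0 to 6 neighbours lower were called; the lowest counts of genes and enzymes came without Hypoxia 1, and the counts of genes were highest without Hypoxia+Nitrate 2. With library size as the only scaling 1800 genes, 1 enzyme, 1 neighbour higher and 0 lower passed. RLE scaling called 4 neighbours lower. Without a filter 16708 genes passed, and 14689 in DESeq2, 15818 in limma-voom and 20696 with quality weights, with 7, 6 and 7 neighbours lower in these 3. With the background as covariate edgeR called 0 genes, 0 enzymes, 0 neighbours higher and 0 lower (2640 genes at an unadjusted p under 0.05). The background share did not overlap between the groups (2.74% to 23.2% against 39.0% to 63.7%). That fit can therefore hardly separate background from group, and its lack of calls decides nothing. After background subtraction 2018 of 14974 nuclear protein-coding genes, 1 enzyme and 1 neighbour higher passed. Without Hypoxia 1 and 2, 4227 genes, 1 enzyme, 1 neighbour higher and 0 lower passed. Calls higher made up 48.1% of all calls under TMM, 35.0% under RLE, 34.4% under upper-quartile and 13.5% under library-size scaling.

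With the replicate number as a block, edgeR called 4791 genes, 3 enzymes (Otc was lost), 10 neighbours higher and 0 lower. Deviations of same-numbered samples correlated at 0.05, −0.18, 0.18 and −0.05, and 3 of 8 samples correlated best with their own number, so the numbers were not taken as pairs.

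Directions turned with library size for Arg1 (−0.081) and Ddah1 (−0.49), and without Hypoxia+Nitrate 1 and 4 for Ddah1 (−1.12). After subtraction they turned for Ass1 (−0.21), Ddah1 (−0.74) and Ddah2 (−0.37). With the background covariate Arg2, Otc and Ddah1 were at −0.33, −1.89 and −2.80, with SEs of 3.03, 2.26 and 1.95. As that fit can hardly separate background from group, no direction is read from it. The log2 ratio of Cps1 to Otc turned after subtraction (0.87) and without Hypoxia+Nitrate 1 and 4 (0.61), where Ddah1 to Ddah2 was −2.0; after subtraction Ddah1 to Ddah2 was −1.03. The ratio of Ddah1 to Ddah2 turned without Hypoxia+Nitrate 2 (0.13) or 3 (0.54), and ran from −1.08 to 0.54 over the fits without 1 library. The causes were not tested. With 3 against 4 libraries the exact permutation test of a ratio cannot go below 0.0571. At this depth enzymes in Hypoxia stood at 1.67 to 3.57 times the expected background over the group, which limits every fold change.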

Other observations

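Markers of further cell types also differed between the libraries. All 4 smooth muscle markers (Myh11, Acta2, Des and Tagln) were called higher, with summed levels of 1119 to 2357 CPM in Hypoxia+Nitrate and 53.7 to 363.0 CPM in Hypoxia. Of 3 plasma cell markers (Jchain, Mzb1 and Xbp1) 2 were called higher, at 37.0 to 167.3 CPM in Hypoxia+Nitrate and 9.39 to 20.8 CPM in Hypoxia. The 3 erythroid markers (Hba-a1, Hbb-bs and Alas2) summed to 40.5 to 74.0 CPM in Hypoxia+Nitrate and 4.69 to 39.5 CPM in Hypoxia, with 0 called. Of 5 pancreatic acinar markers (Cpa1, Cela2a, Pnlip, Prss2 and Amy2a5) 1 was called lower, at 0 to 2.79 CPM in Hypoxia+Nitrate and 7.42 to 11.6 CPM in Hypoxia. Cela2a and Amy2a5 had no count in Hypoxia+Nitrate. The acinar sum was 0 to 0.381 times the expected background in Hypoxia+Nitrate and 0.827 to 1.07 times in Hypoxia. Acinar RNA thus did not stand out from background in either group.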
